A study of Xenopus tropicalis with 18 samples.

Results

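At stage 65 the coccyx and the hypochord of wild-type Xenopus tropicalis tadpoles were compared by RNA sequencing in 3 libraries of each tissue, chosen by the stage and tissue in their labels. These are 6 of the 18 libraries of the series, which also covers stages 56, 58 and 61. Every group is wild type, with no treatment or transgene in the labels, and the tissues were cut from frozen sections by laser capture microdissection. The labels leave unsaid whether the 3 replicates of a tissue are different animals, and p-values cover the spread between these samples alone, which may be technical. Replicates 1 and 2 share a table of 19921 genes and were tested together, with each replicate number taken as a pair of coccyx and hypochord. Replicate 3 lists 21458 genes under identifiers that could not be matched to the others, so its coccyx and hypochord libraries were described within their own table.

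The urostyle is a bony rod at the rear end of the frog spine that takes the place of a tail skeleton. It is built from a coccyx, formed by caudal vertebral elements on the dorsal side, and a hypochord, a skeletal rod under the notochord, and both take shape during metamorphosis, which thyroid hormone drives while the tail is resorbed. The deposited tables do not pair identifiers with gene names, and the RefSeq gene table held 0 of the 19921 identifiers of replicates 1 and 2. Neither tissue could therefore be checked against its defining markers, and genes are described by number, direction, abundance and, for 4 of them, identifier.

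Stage 65 libraries differed in depth. The coccyx libraries held 4153045, 3347485 and 10418992 counts in replicates 1, 2 and 3, and the hypochord libraries held 2741662, 1918822 and 10593181 counts. The shallower pairs, replicates 1 and 2, are those the test rests on, and in both of them the coccyx library was the deeper one. The libraries carry no molecular identifiers, so counting intervals and floors in the text cover counting error only.

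More genes were detected in the coccyx libraries than in the hypochord libraries once the number of counts was made equal. Equal counts do not make the number of captured molecules equal, and its part in this difference was not tested. When 1918822 counts were drawn from each library, the genes expected to show 1 count or more numbered 12722, 13098 and 13428 in coccyx, against 11125, 11003 and 11869 in hypochord. The groups did not overlap, though replicate 3 was counted over a list of 21458 genes and replicates 1 and 2 over 19921. Within its own list coccyx was higher in 3 of 3 pairs, by 1750 ± 299 genes (SD, n = 3 pairs). The exact permutation test that swaps tissues within pairs, two-sided, gave p = 0.25, the smallest that 3 pairs allow. The evenness of the profiles did not separate the tissues in this way. An effective number of genes, computed as the exponential of Shannon entropy, was 1137, 1876 and 938 in coccyx, against 759, 1310 and 1020 in hypochord. Replicates 1 and 2 had the higher value in coccyx and replicate 3 had it in hypochord. The 10 most abundant genes took 19.4%, 11.7% and 19.8% of counts in coccyx, against 20.4%, 14.0% and 17.4% in hypochord, which overlapped.

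**Figure D1:**
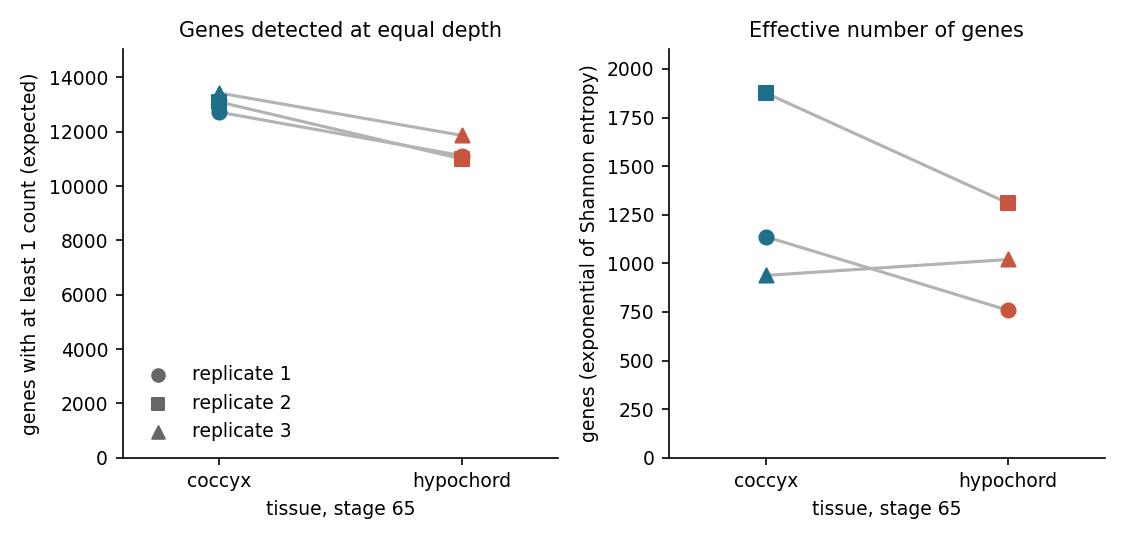
Genes detected when 1918822 counts are drawn (left) and effective number of genes (right) in each stage 65 library, with coccyx left of hypochord and lines joining the libraries of one replicate number. The 3 coccyx libraries detect 12722 to 13428 genes and the 3 hypochord libraries 11003 to 11869, while the effective number is higher in coccyx in replicates 1 and 2 and lower in replicate 3.

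Between the tissues of replicates 1 and 2, 305 of 10959 tested genes (2.78%) differed, and most of them were higher in coccyx. edgeR's quasi-likelihood test, with the pair as a block and an adjusted p (Benjamini-Hochberg) under 0.05, called 277 genes with a coccyx excess (2.53%) and 28 with a hypochord excess (0.255%). At an unadjusted p under 0.05 there were 1702 genes, 1276 of them higher in coccyx. Both coccyx libraries stood above both hypochord libraries for 3288 of the tested genes (30%), and below both for 2162 (19.7%). With 2 libraries a tissue such separation also arises where the tissues do not differ, so these numbers are not counts of differing genes. The stage 61 libraries of the same replicates entered this fit for the estimate of the spread, while the stage 65 fold changes came from the stage 65 libraries. Whether the replicate numbers mark shared animals is not given in the labels, and without the block the same test called 1 gene, with 1364 at an unadjusted p under 0.05. With a single stage 65 pair left it called 80 genes without replicate 1 and 74 without replicate 2, and without either stage 61 pair it called 1350 and 1358.

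The excess of calls in coccyx was most marked among genes of low abundance, taken as the mean over both tissues. A gene near 0 in one tissue thus falls in a lower class than its level in the other would give. CPM is a count scaled to its library's total. For these classes it was also scaled by TMM factors (edgeR's scaling between libraries), with a small count added before the log. Below a mean log2 CPM of 3, the test called 148 genes towards coccyx and 5 towards hypochord, out of 4496. From 3 to 5 it called 87 and 10 of 3557, and from 5 to 7 it called 36 and 5 of 2067. At 7 or more the calls were split about evenly, with 6 genes towards coccyx and 8 towards hypochord out of 839. The same gradient ran through all tested genes, called or not. The log2 fold change, coccyx over hypochord, had a median of 0.59 in the lowest of these classes, 0.04 and -0.07 in the middle ones and -0.26 in the highest. Over all 10959 genes the median was 0.11, and with total counts in place of TMM factors it was 0.37. Directions close to 0 thus depend on the scaling.

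**Figure D2:**
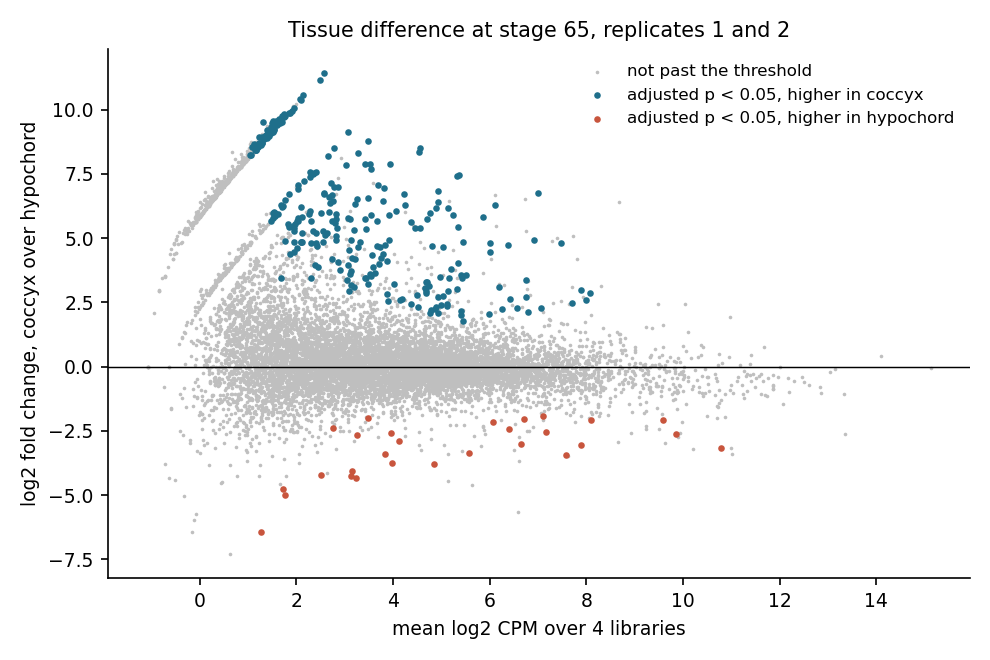
Mean log2 CPM over the 4 stage 65 libraries of replicates 1 and 2 (x axis) against the log2 fold change, coccyx over hypochord (y axis), 1 point a gene. The 277 genes called higher in coccyx lie mostly at low abundance, with 68 of them at 0 counts in hypochord forming the upper left edge, and the 28 called higher in hypochord spread over low and high abundance.

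The 277 genes called higher in coccyx were mostly scarce in hypochord, and many had no count there. A call towards coccyx itself favours genes scarce in hypochord. In hypochord, 68 of them had 0 counts in both libraries, 66 had 0 counts in one library, and 143 had counts in both. These hypochord libraries were shallower than the coccyx libraries, and the part of depth in these zeros was not tested. The smallest called difference was a log2 fold change of 1.79. Among the 143 genes with counts in both hypochord libraries the log2 fold change had a median of 4.21 and ran to 8.49. Against a floor of 3 counts over the hypochord libraries, the 68 genes at 0 were at least 18.0-fold higher in coccyx by total counts. The median of these bounds was 34.2-fold and the highest was 162-fold. The fitted fold changes use TMM factors, under which the bounds were not computed and would be lower. Over all tested genes the median log2 fold change was 0.37 by total counts, against 0.11 with TMM factors. The median log2 fold change of all 277 was 5.77 as fitted and 5.08 with the genes at 0 set to their bound. The latter value mixes both scalings. The filter on low counts can be passed through one tissue alone, and 277 of 277 had at least 10 counts in both coccyx libraries while 54 had them in both hypochord libraries. These genes together took 2.25% and 5.04% of counts in the coccyx libraries, against 0.112% and 0.275% in the hypochord libraries. The direction of these shares follows from the choice of the genes in the same libraries. In bulk samples such as these, fewer cells of a type and less RNA per cell cannot be told apart.

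The 28 genes called higher in hypochord were mostly present in coccyx as well, at a lower level. Their mean log2 CPM had a median of 4.48, against 2.78 for the genes called higher in coccyx. This mean is over both tissues, so near absence from one of them lowers it. Of the 28, 27 had counts in both coccyx libraries and 21 had at least 10 counts in both, and 0 were missing from coccyx altogether. A floor of 3 counts was 0.594 and 0.631 CPM in the deeper coccyx libraries, against 1.19 and 1.20 CPM in hypochord. A scarce gene could thus more readily show a count in coccyx, and the part of depth in this presence was not tested. The size of the difference ran from 1.94 to 6.42 on the log2 scale, with a median of 3.03, and it exceeded 4 (16-fold) for 7 genes. They took 0.365% and 0.184% of counts in the coccyx libraries, against 1.58% and 1.37% in the hypochord libraries, a direction that again follows from their choice.

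ENSXETG00000023413 had the largest log2 fold change among the 129 genes that were called higher in coccyx, did not overlap and had a mean log2 CPM of at least 3. It had 62.7 and 187 TMM-normalised CPM in the coccyx libraries of replicates 1 and 2, against 0 and 0.40 CPM in the hypochord libraries, the second of which is 1 count. The level was thus high in both coccyx libraries and at or next to nothing in both hypochord libraries. With 1201 counts in coccyx and 1 in hypochord the ratio by total counts was 746, with a 95% counting interval of 134 to 29499. The fitted log2 fold change was 9.12 ± 1.04 (SE; adjusted p = 0.00473 by edgeR, and 1.22e-32 to 0.656 over 18 alternatives). At stage 61 the same gene had 109 and 14.3 CPM in coccyx, against 0.395 and 0.896 CPM in hypochord.

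ENSXETG00000015096 had the largest difference of mean CPM in favour of coccyx. It reached 776 and 2397 CPM in the coccyx libraries, against 2.77 and 43.2 CPM in the hypochord libraries. Both coccyx libraries stood far above both hypochord libraries, where the rule required no overlap, and within each tissue replicate 2 was the higher one. The log2 fold change was 6.77 ± 0.79 (SE; adjusted p = 0.00348 by edgeR, and 2.11e-33 to 0.768 over 18 alternatives). At stage 61 it had 1047 and 164 CPM in coccyx, against 5.73 and 2.99 CPM in hypochord, a log2 fold change of 6.72. The test of the difference between the stages gave a log2 difference of 0.05 (stage 65 minus stage 61, adjusted p = 1 by edgeR).

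ENSXETG00000016197 had the largest log2 fold change among the 23 genes called higher in hypochord under the same rule. It had 3.57 and 0.844 CPM in coccyx (18 and 4 counts), against 55.8 and 24.8 CPM in hypochord (141 and 62 counts). Both hypochord libraries lay above both coccyx libraries, as the rule required, with replicate 1 the higher one in each tissue. The log2 fold change, coccyx over hypochord, was -4.31 ± 0.76 (SE; adjusted p = 0.0198 by edgeR, and 5.02e-10 to 1 over 18 alternatives). At stage 61 the levels were 2.99 and 0 CPM in coccyx, against 20.2 and 3.59 CPM in hypochord, and the difference missed the threshold there (adjusted p = 0.0785 by edgeR).

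ENSXETG00000009279 had the largest difference of mean CPM in favour of hypochord. It had 1064 and 328 CPM in the coccyx libraries, against 7793 and 3589 CPM in the hypochord libraries. The gene was thus abundant in both tissues, with the lower hypochord value above the higher coccyx value, as the rule required. The log2 fold change was -3.16 ± 0.64 (SE; adjusted p = 0.0334 by edgeR, and 1.20e-12 to 1 over 18 alternatives). At stage 61 it had 191 and 1113 CPM in coccyx, against 4307 and 5887 CPM in hypochord, a log2 fold change of -3.45. All 4 genes lost their calls without the block in the 8-library fit. With either stage 65 pair left out each gene kept its direction, which the rule of no overlap had largely fixed. Such a fit has 1 stage 65 library a tissue, so it does not measure the spread between libraries at that stage.

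**Figure D3:**
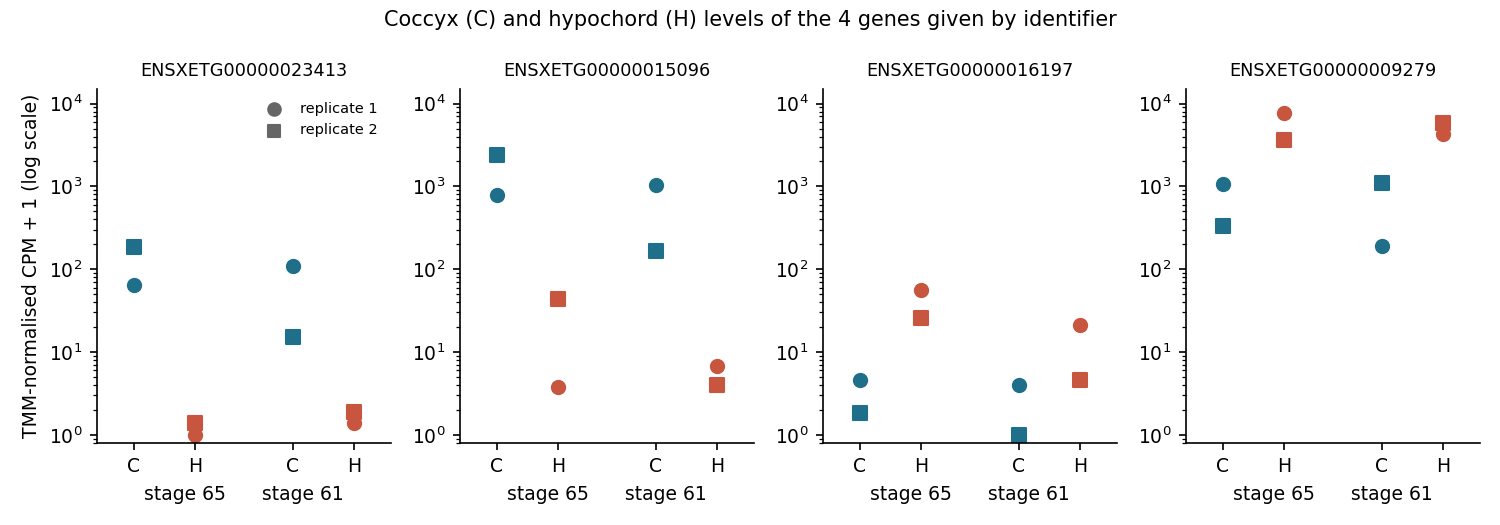
TMM-normalised CPM plus 1 (log scale) of the 4 genes given by identifier in the coccyx (C) and hypochord (H) libraries of replicates 1 and 2, at stage 65 (left of each panel) and stage 61 (right), 1 point a library. At stage 65 the tissues do not overlap for any of the 4, which their choice required. An example is ENSXETG00000015096, with 776 and 2397 CPM in coccyx against 2.77 and 43.2 CPM in hypochord.

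How tissue differences compared with those between replicates depended on their size. By total counts, tissue differences past 4-fold were the more frequent, while past 2-fold the hypochord replicates differed about as often as the tissues. To describe this, log2 ratios of CPM plus 1 were taken for each pair of libraries among genes with a mean of at least 10 CPM over the pair. Between coccyx and hypochord, 8.43% of 6229 genes lay past 4-fold in replicate 1 (95% Wilson interval 7.76% to 9.14%). In replicate 2 it was 12.45% of 7053 (11.7% to 13.2%). These intervals treat genes as independent draws and do not measure the spread between libraries. Between replicates, 1.49% of 7062 genes lay past 4-fold in coccyx and 5.51% of 6081 in hypochord. Coccyx replicate 1 against hypochord replicate 2 gave 7.22% and coccyx replicate 2 against hypochord replicate 1 gave 16.7%. Past 2-fold the order was another. Between tissues 24.0% of genes lay past 2-fold in replicate 1 and 32.8% in replicate 2, with 27.0% for coccyx replicate 1 against hypochord replicate 2 and 40.6% for coccyx replicate 2 against hypochord replicate 1. Between replicates it was 15.0% in coccyx and 29.3% in hypochord, so the hypochord replicates exceeded 2 of the 4 tissue comparisons. These ratios use total counts, and some were shifted as a whole. For hypochord replicate 1 over 2 the median log2 ratio was -0.48, with 4.23% past 2-fold towards replicate 1 and 25.1% towards replicate 2. For coccyx replicate 2 over hypochord replicate 1 it was 0.63, with 34.6% towards coccyx and 6.02% towards hypochord. With TMM factors of the pair, the tissue shares past 4-fold were 7.26% in replicate 1 and 11.9% in replicate 2. The part of scaling in the other shares was not tested. Spearman's rho across genes, which are not independent replicates, was 0.955 between the coccyx libraries and 0.911 between the hypochord libraries, and ran from 0.866 to 0.896 between the tissues.

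The pairs of replicates 1 and 2 share no library, and large tissue differences in one pair had the same direction in the other. Over 6706 genes with a mean of at least 10 CPM in the 4 libraries, 65.2% had the same direction in both pairs, and the log2 ratios of the pairs correlated with r = 0.73 (Pearson) and rho = 0.53 (Spearman). Of 618 genes more than 4-fold higher in coccyx in replicate 1, 579 (93.7%) were higher in coccyx in replicate 2, against 54.9% of all 6706 genes, and 413 were past 4-fold there too. Of 39 genes more than 4-fold higher in hypochord in replicate 1, 38 (97.4%) were higher in hypochord in replicate 2, against 45.1% of all genes. In the other direction, 611 of 625 genes past 4-fold towards coccyx in replicate 2 were higher in coccyx in replicate 1 (97.8%), against 72.7% of all genes. Of 124 past 4-fold towards hypochord in replicate 2, 112 (90.3%) were higher in hypochord in replicate 1, against 27.3% of all genes, and 28 were past 4-fold there.

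**Figure D4:**
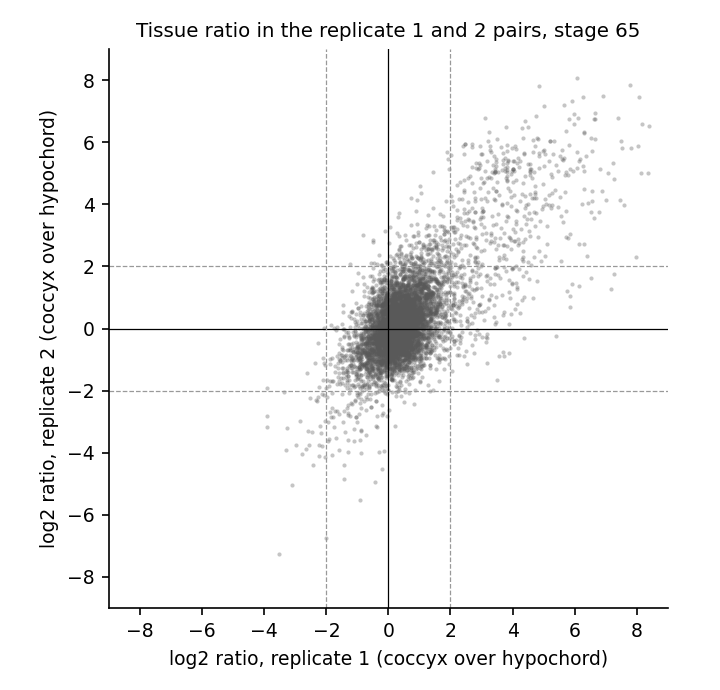
Log2 ratio of coccyx to hypochord (CPM plus 1) in replicate 1 (x axis) and replicate 2 (y axis) of stage 65 for 6706 genes with a mean of at least 10 CPM, with dashed lines at 4-fold. Points past 4-fold towards coccyx in both pairs (413) form the upper right arm, and those past 4-fold towards hypochord in both (28) the smaller lower left arm.

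Genes counted in coccyx alone were far more numerous than genes counted in hypochord alone. In the coccyx libraries of replicates 1 and 2, 296 genes reached 10 counts in each while the hypochord libraries held 0, which is 3.16% of the 9379 genes with such coccyx counts. One gene had the reverse, out of 6937 with at least 10 counts in both hypochord libraries, and it averaged 11.5 counts there. The coccyx-only genes averaged 11 to 390.5 counts over the coccyx libraries, with a median of 35.5. In replicate 1 alone there were 677 coccyx-only and 9 hypochord-only genes, and in replicate 2 alone 922 and 20. The hypochord libraries of these replicates were the shallower ones, and the part of depth in these counts was not tested. In replicate 3, with 10418992 counts in coccyx and 10593181 in hypochord, 1120 genes had at least 10 counts in coccyx and 0 in hypochord (9.08% of 12331), and 171 had the reverse (1.56% of 10984), a smaller imbalance than in replicates 1 and 2. A hypochord-only gene of replicate 3 reached 626 counts with 0 counts in coccyx.

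The stage 61 libraries, which the choice of these genes did not use, held the same contrast. Of the 296 coccyx-only genes of stage 65, 289 and 277 had a count in the stage 61 coccyx libraries of replicates 1 and 2, against 80 and 100 in the stage 61 hypochord libraries. Of all 9379 genes with at least 10 counts in both stage 65 coccyx libraries, 94.2% had a count in each of these stage 61 hypochord libraries, which were deeper than those of stage 65. For the 296 genes these hypochord shares were 27.0% and 33.8%. In the stage 61 coccyx libraries 99.7% and 99.5% of the 9379 genes had a count, against 97.6% and 93.6% of the 296. The contrast thus lay in the hypochord libraries. The median count of the 296 genes was 31 and 7 in stage 61 coccyx and 0 in both stage 61 hypochord libraries. The 9379 genes were not matched to the 296 in abundance, and the part of low abundance in these shares was not tested.

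In replicate 3, with 1 library a tissue and hence no test, most of the larger differences were also higher in coccyx. Among 6962 genes with a mean of at least 10 CPM, 383 were more than 4-fold higher in coccyx (5.5%) and 123 were more than 4-fold higher in hypochord (1.77%). In replicate 1 these shares were 7.75% and 0.674%, and in replicate 2 they were 10.4% and 2.1%. Past 16-fold, 2.48% of genes lay towards coccyx and 0.144% towards hypochord in replicate 3. The middle of the distribution lay elsewhere. The median log2 ratio was -0.08 in replicate 3, against 0.36 in replicate 1 and 0.12 in replicate 2, and 44.8% of genes were higher in coccyx in replicate 3, against 71.8% and 54.9%. These ratios use total counts, so that small shifts of the middle depend on the scaling, while the tails did not balance in any of the 3 pairs.

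Abundance shaped the ratios in replicate 3 as well, though most of its most abundant genes were higher in coccyx. From 1 to 10 CPM, 15.7% of 5089 genes lay past 4-fold towards coccyx and 2.20% towards hypochord. In this class the shares were 15.2% and 0.716% in replicate 1 and 20.4% and 3.63% in replicate 2. From 10 to 100 CPM in replicate 3 they were 5.62% and 1.38% of 5816 genes. From 100 to 1000 CPM these shares were 4.995% and 3.20% of 1001 genes. At 1000 CPM or more, 6 genes were more than 4-fold higher in coccyx and 11 in hypochord, out of 145, and replicates 1 and 2 had 6 and 6 of 146 and 8 and 11 of 150. Of these most abundant genes 59.3% were higher in coccyx in replicate 3, against 30.8% in replicate 1 and 30.7% in replicate 2. The excess in coccyx below 10 CPM was thus common to the 3 pairs, and the direction of the most abundant genes was not.

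**Figure D5:**
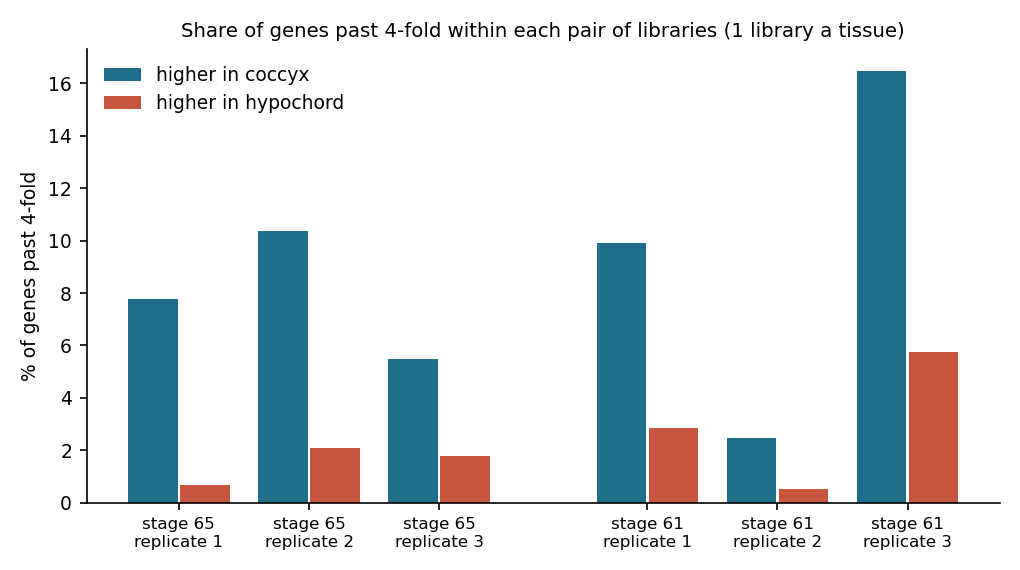
Percent of genes with a mean of at least 10 CPM that lie past 4-fold within each pair of libraries (y axis), higher in coccyx (left bars) and higher in hypochord (right bars), at stage 65 and stage 61, with 1 library a tissue and no error. At stage 65 the coccyx bars stand at 7.75%, 10.4% and 5.5% and the hypochord bars at 0.674%, 2.1% and 1.77%.

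The most abundant genes were largely common to both tissues. By mean CPM over replicates 1 and 2, 73 of the 100 most abundant genes of coccyx were among the 100 most abundant of hypochord, and 8 of the top 10 were shared. In replicate 3 these numbers were 77 and 6. CPM are not corrected for gene length, so the order of genes within a tissue also follows length. Of the top 100 in coccyx, 18 were at least 2-fold higher in coccyx in replicates 1 and 2 and 8 in replicate 3. Of the top 100 in hypochord, 26 and 24 were at least 2-fold higher in hypochord. Each top 100 was picked by the level in its own tissue, which favours that direction. Among all genes with a mean of at least 10 CPM over a pair, 20.1%, 22.4% and 10.4% were past 2-fold towards coccyx in replicates 1, 2 and 3. Towards hypochord these shares were 3.90%, 10.4% and 9.67%. The coccyx top 100 held 2 of the 277 genes called higher in coccyx, where 2.53% of all tested genes had this call. The hypochord top 100 held 3 of the 28 called higher in hypochord, where 0.255% of all tested genes had it. The last 37 gene rows of the tables took 1.54%, 2.06% and 1.94% of counts in coccyx, against 0.994%, 1.34% and 1.45% in hypochord. Coccyx was higher within each replicate number.

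Stage 61 is the stage closest to stage 65 and offers a tissue contrast from other libraries of the same replicates. The same fit called 219 genes at stage 61 (2%), of which 201 had more in coccyx (1.83%) and 18 had more in hypochord (0.164%). Genes called at both stages numbered 159, which is 52.1% of the stage 65 calls and 72.6% of the stage 61 calls, and 158 of them had the same direction. Both contrasts use one estimate of the spread per gene, so their calls are not independent and this overlap is not a separate test. Across 10959 genes the log2 fold changes of the stages correlated with r = 0.68 (Pearson) and rho = 0.45 (Spearman). The direction at stage 61 was that of stage 65 for 272 of the 277 genes called higher in coccyx and for 25 of the 28 called higher in hypochord, against 63.6% of all tested genes. The test of the difference itself, the stage 65 log2 fold change minus that at stage 61, called 1 gene (0.00912%), with 521 at an unadjusted p under 0.05. DESeq2 called 46 and limma voom called 3, and the 146 genes called at stage 65 alone were thus not shown to be particular to it. Without the first and the second stage 61 pair the test called 238 and 225 genes, and without either stage 65 pair it called 0, with 595 and 260 at an unadjusted p under 0.05.

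In these libraries that gene turned its direction between the stages. It had 225 and 259 counts in stage 65 coccyx, against 18 and 34 in stage 65 hypochord. At stage 61 it had 4 and 25 counts in coccyx, against 118 and 222 in hypochord. The higher tissue was thus coccyx at stage 65 and hypochord at stage 61, with no overlap at either stage. Its log2 fold change was 2.31 at stage 65 (adjusted p = 0.0345) and -4.23 at stage 61 (adjusted p = 0.0042), both by edgeR's quasi-likelihood test. Their difference was 6.54 (adjusted p = 0.0481 by the same test), and the gene was singled out after its values were seen. The test of the difference called 0 genes with DESeq2 size factors, with the strict filter and with no replicate block.

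The genes called higher in coccyx at stage 65 leaned towards coccyx at every stage measured, while those called higher in hypochord were split more evenly before stage 61, in pairs where most tested genes were higher in coccyx. Of the 277 genes, 267 were higher in coccyx at stage 56 (replicate 1), 269 at stage 58 (replicate 2) and 274 and 268 at stage 61, against 72.2%, 74.4%, 54.1% and 66.7% of all tested genes. Their median log2 ratio of CPM plus 1 was 3.77, 4.50, 3.97 and 1.81 in these pairs, and 4.02 and 4.55 at stage 65. Over all tested genes it was 1.20, 1.45, 0.12 and 0.29 in the earlier pairs, so that those of stages 56 and 58 lay towards coccyx as a whole, and 0.45 and 0.25 at stage 65. Replicate 2 of stage 61 had the lowest of these values. Of the 28 genes, 16 were higher in hypochord at stage 56, 13 at stage 58 and 25 and 21 at stage 61, against 26.1%, 25.1%, 45.6% and 32.5% of all tested genes. Stages 56 and 58 have 1 hypochord library each here, and these held a count for 103 and 142 of the 277 genes, against 198 and 163 in the stage 61 hypochord libraries and 155 and 197 in those of stage 65. Of all 10959 tested genes, the hypochord libraries of stages 56 and 58 held a count for 6985 and 7174. Those of stage 61 held one for 10116 and 10145, and those of stage 65 for 10094 and 9947. The part of the low detection of the early hypochord libraries in these values was not tested.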

How the data were processed

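The deposited tables give raw counts, one library a table, per the file headers and as checked on the values. Per the submitters' processing notes, cutadapt 1.8.1, HTSeq 0.13.5 and FastQC were used. An aligner, a build, an annotation and a strand setting were not given in the sources used here, so overlapping or near-identical genes have uncertain counts. Per the labels' protocols, complementary DNA was made with a kit for very low input and amplified by PCR. The members and the rules were chosen with earlier results of these data known. No 2 libraries held identical values.

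Identifiers of replicate 3 run from 2 to 21459 in 21457 steps of 1. Over the 11315 identifiers shared with the other table, stage 65 coccyx counts of replicates 1 and 3 had a Spearman's rho of 0.0088, against 0.956 for replicates 1 and 2.

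Counts of 8 libraries (stages 61 and 65, replicates 1 and 2) were tested in R 4.3.3 by edgeR 4.0.16, using TMM, filterByExpr by stage and tissue, and robust quasi-likelihood fits blocked by pair (stage with replicate number), with a tissue effect for each stage. P-values were adjusted by Benjamini-Hochberg at 0.05. The fit had 2 residual degrees of freedom, and its common biological coefficient of variation was 0.423. TMM factors at stage 65 ran from 0.922 to 1.42, and a floor of 3 counts was 0.594 to 1.20 CPM. Standard errors were approximated by dividing a fold change by the root of its F statistic. The rule for named genes took, in each direction, the largest log2 fold change and the largest difference of mean CPM among called genes that had no overlap and averaged a log2 CPM of 3 or more. The planned marker and pathway lists need gene names and were not run.

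Across 10959 genes, same-numbered tissues deviated together (r = 0.22 for stage 65, r = 0.36 for stage 61). With 2 replicates this cannot establish the pairing, which is an assumption of the comparison. Alternatives used DESeq2 1.42.0, limma 3.58.1 (voom), other filters, scalings and libraries.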

Additional observations from a re-analysis of the deposited data

Results flagged for a closer look

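One result differed between groups in a test of the difference itself: the tissue difference at stage 65 was other than that at stage 61 for 1 gene of 10959 by edgeR's quasi-likelihood test (adjusted p = 0.0481). The gene was higher in coccyx at stage 65 (54.2 and 77.4 CPM by total counts, against 6.57 and 17.7 CPM in hypochord). At stage 61 it was lower in coccyx (0.793 and 3.46 CPM, against 23.9 and 39.6 CPM in hypochord). Its call was lost with DESeq2 size factors, with the strict filter and with no replicate block.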

How the results depend on the processing

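The count of genes that differed between coccyx and hypochord at stage 65, 305 in the test reported, depended on the replicate block, the libraries, the scaling, the filter on low counts and the tool, and most calls were higher in coccyx under each setting that made calls. The test called 1 gene with no replicate block, with 1364 at an unadjusted p under 0.05. With the block it called 1325 genes with the stage 65 libraries alone (969 higher in coccyx), 458 with stage 56 added, 593 with total counts in place of TMM, 667 with no filter on low counts, 215 with the strict filter, 298 with DESeq2 size factors, 635 with DESeq2 and 465 with limma voom. The 305 genes were among those called with the stage 65 libraries alone and with stage 56 added, and 263 of them were among those called by DESeq2. With no replicate block and the stage 65 libraries alone, chosen after seeing the data, it called 624. Leaving out a stage 65 pair gave 74 to 80 genes, and over all leave-outs of a pair, or with no block of a library, the range was 0 to 1358. Without the block each of the 4 leave-outs of a stage 65 library gave 0, with 605 to 1218 at an unadjusted p under 0.05, and the libraries left alone were assumed to vary like the others. The cause of these differences was not tested.

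The count of genes whose tissue difference differed between stages, 1, was 0 with no replicate block, with DESeq2 size factors and with the strict filter in edgeR, with 353, 524 and 479 at an unadjusted p under 0.05. It was 3 with stage 56 added, 17 with no filter, 46 with DESeq2, 3 with limma voom and 0 to 238 when a pair or library was left out. The 4 genes given by identifier kept their direction in all 18 alternatives each. Their choice, which required no overlap between the tissues in the same libraries, had largely fixed this. It is thus not a separate check of their direction.

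The coccyx excess in detected genes kept its direction under 5 alternatives (1297 to 1846 genes, and 1578 to 1846 when a replicate was left out). Coccyx was higher in 3 of 3 pairs, so leaving out a replicate could not have turned it. The share past 4-fold in replicate 1 was 6.50% with a pseudocount of 5 CPM, 11.7% and 7.16% with means of at least 1 and 50 CPM, and 7.26% with TMM factors. In replicate 2 it was 13.3% and 9.51% with pseudocounts of 0.1 and 5 CPM and 17.0% and 10.5% with means of at least 1 and 50 CPM. In replicate 3 these 4 values were 7.93%, 5.52%, 11.8% and 6.63%. The pairs had the same direction for 67.4% of genes with a mean of at least 50 CPM.

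Coccyx-only genes of replicates 1 and 2 numbered 537 and 170 with at least 5 and 20 counts, and 677 to 922 with one replicate left out. Hypochord-only genes numbered 0 with at least 20 counts and 9 to 20 with one replicate left out. In replicate 3, 700 coccyx-only genes remained at 20 counts, and hypochord-only genes numbered 320 and 71 at 5 and 20 counts. The minimum of 10 counts was a choice. How many coccyx counts would tell a gene absent from hypochord from one missed at these depths was not tested. The depth was lowest in hypochord replicate 2.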
